A study of Mus musculus with 6 samples.

Results

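The keratin gene family was followed across the cells of mouse skin, from the basal layer of the epidermis to the hair follicle and the sebaceous gland, and between EC-OVA and EC-SAL skin. Members were the 49 genes, of 32285 in the gene table, whose symbol is Krt with a number and at most 1 further letter, leaving out the 4 stress keratins Krt6a, Krt6b, Krt16 and Krt17. The 6 libraries came from Balb/c mice, with 3 labelled EC-OVA (OVA-sensitized) and 3 labelled EC-SAL (control). The labels describe the skin of both groups as epicutaneously sensitized, that is treated on the skin surface, over 10 days, and as sampled 2 days later and digested with enzymes. They give neither the age nor the sex of the mice, do not spell out SAL, and do not say whether replicates were separate animals or pools, and the p-values here speak only of how much these 6 libraries vary, whatever the source of that variation. The cell type label of all 6 libraries is CD4, whereas keratinocytes, fibroblasts, endothelial cells, cartilage cells and leukocytes were all present by their markers, and the libraries were treated as whole-skin suspensions.

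Each library was made with droplet chemistry that reads the 3′ end of transcripts and counts them as unique molecular identifiers (UMIs), so that a level in UMIs per 1e6 UMIs of the same cells (CPM) is a number of transcript ends and needs no scaling by gene length. The libraries held 25350813 to 33650630 UMIs, and 3405 to 4975 cells per library were kept, giving 8852 epithelial and 15525 other cells. Epithelial cells were 27.8, 24.6 and 25.4% of kept cells in the EC-OVA libraries, against 44.4, 45.6 and 44.3% in the EC-SAL libraries. They held 37.9% ± 1.89 of the UMIs in EC-OVA and 62.3% ± 0.233 in EC-SAL libraries (SD, n = 3 each), and the link of this difference to the keratin UMIs found in other cells was not tested. An exact permutation test of 3 against 3 libraries cannot go below p = 0.1, the value found for both shares. Pairs of libraries shared 33 to 87 barcodes.

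Keratins are the intermediate filament proteins of epithelia. A filament is built from pairs of 1 acidic type I and 1 basic type II chain, and epidermal cells exchange one pair for another as they leave the basal layer, from Krt5 with Krt14 to Krt1 with Krt10. Hair follicles make further sets, soft keratins in the inner root sheath that moulds the hair and cysteine-rich hard keratins in the shaft itself, while simple epithelia use Krt8, Krt18 and Krt19.

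All 49 members lay in 2 stretches of the genome (GENCODE M21, GRCm38). The 25 type I genes from Krt222 to Krt42 spanned 1037 kb at chr11:99232761-100269871, and the 23 type II genes together with the type I gene Krt18 spanned 684.6 kb at chr15:101347444-102032027. Genes whose highest level fell in the same group of cells were often neighbours. Of the genes from Krt23 to Krt36 on chromosome 11, over 627.7 kb, 9 were highest in the hair matrix and the other, Krt40, had 0 UMIs. The 7 genes from Krt81 to Krt75 on chromosome 15, over 114.8 kb, were all highest in the hair matrix, and Krt2, Krt1 and Krt77 were 3 neighbours highest in suprabasal cells, over 59.02 kb. Some of these places rest on few UMIs, with 2 hair matrix UMIs for Krt84 and 5 for Krt39. With 21 keratins highest in the hair matrix, some neighbours would share that group in any order, and the excess was not tested. RefSeq promoters (GRCm38.p6) were matched for 36 of the 49 keratins. The motif TATAAA, searched in the 60 bases before the annotated start, was present on the gene's strand in 15 of 37 keratin promoters (40.5%) and in 944 of all 32851 promoters (2.87%). On the other strand it was present in 0 of 37 keratin promoters and in 1.32% of all promoters.

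The last 50 bases before the start are shown for 6 keratins, because the motif was in all 6 of 6 promoters of the keratins highest in the Cntfr-led follicle cells described below, mostly inner root sheath keratins, and in 0 of 2 of the basal keratins. Those 2 were Krt5 and Krt14. The Krt14 window (chr11:100206031-100206080) lies inside the annotated gene (chr11:100203162-100207548). The bases before the outer start of Krt14 were therefore not searched, and the basal count rests on Krt5. Capitals mark TATAAA, and all 6 genes read from the minus strand.
Krt25 (chr11:99322952-99323001): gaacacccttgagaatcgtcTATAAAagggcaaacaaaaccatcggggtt
Krt27 (chr11:99351119-99351168): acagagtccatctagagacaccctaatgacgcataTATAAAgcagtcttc
Krt71 (chr15:101743098-101743147): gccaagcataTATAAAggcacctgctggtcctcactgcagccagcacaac
Krt10 (chr11:99389365-99389414): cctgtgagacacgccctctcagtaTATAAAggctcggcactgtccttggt
Krt2 (chr15:101818170-101818219): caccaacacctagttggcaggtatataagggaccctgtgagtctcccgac
Krt5 (chr15:101712906-101712955): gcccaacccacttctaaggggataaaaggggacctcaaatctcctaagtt
Among the other groups, the motif was found in 5 of 14 promoters of hair matrix keratins, 2 of 6 of upper follicle keratins and 1 of 5 of suprabasal keratins. Krt2 and Krt5 carry close variants of these letters, and a missing match says only that the exact letters are not in the window.

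Epithelial cells were grouped without any keratin among the genes used to cluster or to name them, so the keratin map below is a description and carries no test. By marker profile there were 2159 basal-like cells, with clusters led by Mmp3, Il1r2 and Fcgbp, and 2456 suprabasal-like cells, led by Ly6g6c and Sprr1b. There were 776 upper follicle-like cells (led by Cst6 and Defb6), 211 hair matrix-like cells (led by S100a3 and Krtap8-1) and 489 sebocyte-like cells (led by Akr1c18, Cidea and Fa2h). Short names without the suffix are used from here on. A further 3 groups are called by their leading gene. Akr1c18-led cells (876 cells) raised 6 of the sebocyte markers but fell under a mean marker level that was set after the clusters were seen. Tagln-led cells (905 cells) raised lower follicle and bulge markers, but the smooth muscle genes Tagln and Acta2 stood among their leading genes. Cntfr-led cells (603 cells, led by Cntfr, Lhx2 and Cxcl14) raised markers of the matrix and inner root sheath. The last 377 epithelial cells stayed unnamed.

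Each of the 48 keratins with any UMI was assigned to the group where its mean CPM over the 6 libraries was highest. Basal cells were highest for 3 keratins, suprabasal cells for 6, the upper follicle for 7, the hair matrix for 21, sebocytes for 1, Akr1c18-led cells for 1, Tagln-led cells for 3 and Cntfr-led cells for 6. Krt40 had 0 UMIs in any cell.

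**Figure D1:**
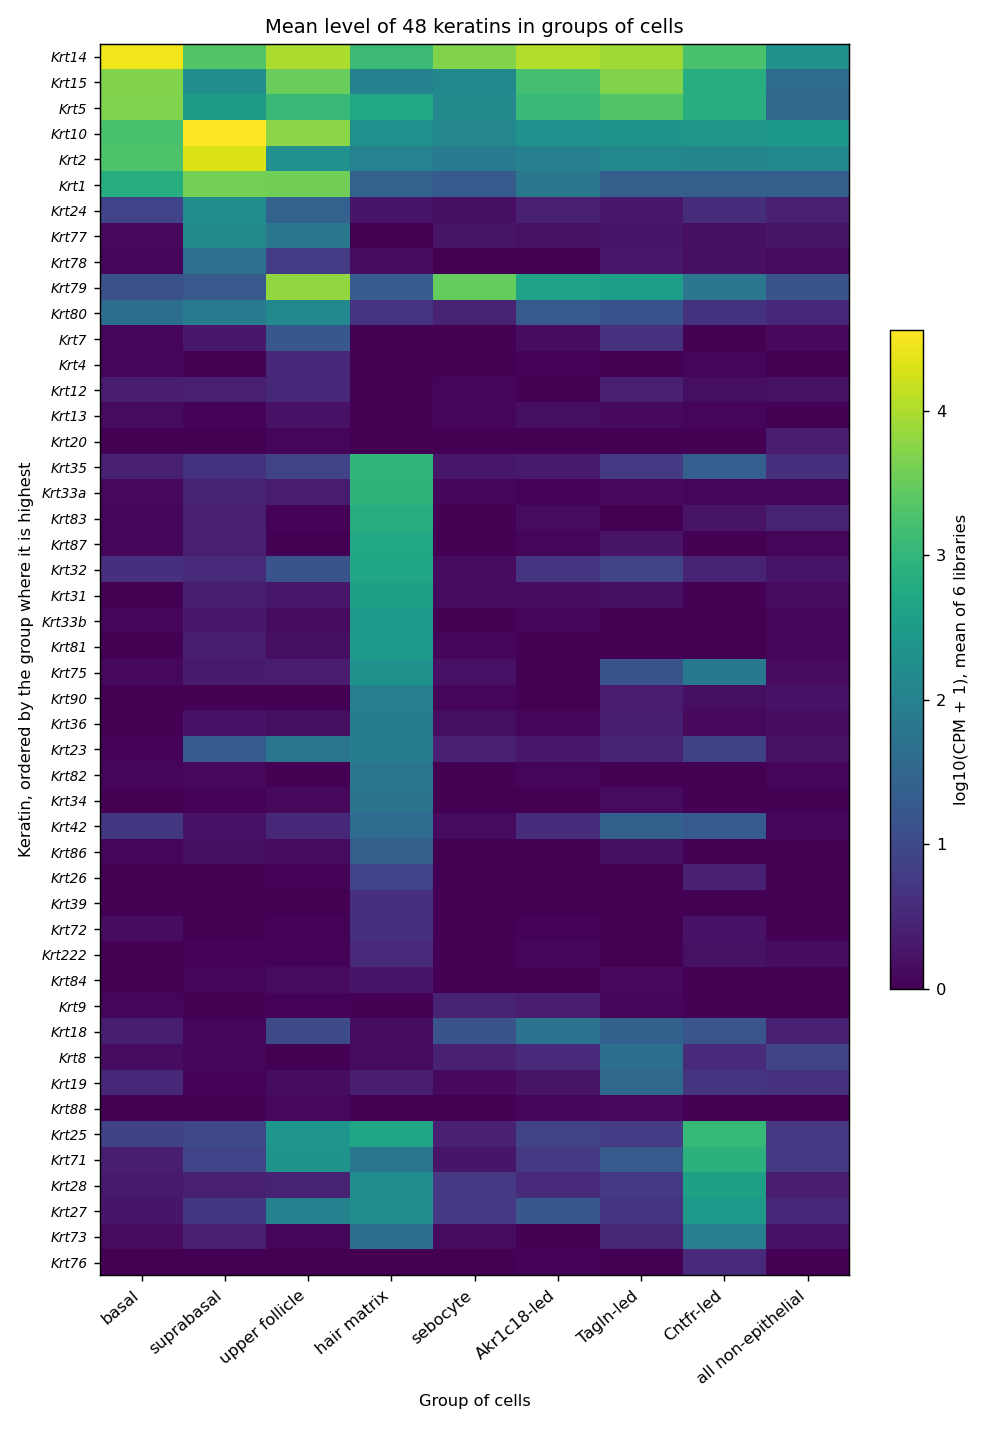
Colour gives the mean level of each keratin over 6 libraries, as log10(CPM + 1), in 8 groups of epithelial cells and in all non-epithelial cells (columns), with keratins (rows) ordered by the group where each was highest. Krt14, Krt5 and Krt15 mark the basal column, Krt10, Krt2 and Krt1 the suprabasal column and Krt79 the upper follicle and sebocyte columns, and the hair keratins form a block in the hair matrix.

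The basal pair was present in nearly every basal cell. Krt14, the type I partner, averaged 28670 CPM in basal cells and Krt5, its type II partner, 4811 CPM, and 99.0% of basal cells had UMIs of both. Krt5 was detected in 99.0% of basal cells (median depth 8087 UMIs) and in 6.42% of leukocytes (median depth 1851 UMIs), a cell type that should lack it. Krt15, a type I keratin of basal cells that is enriched in follicle stem cells, averaged 4994 CPM in basal cells and 4868 CPM in Tagln-led cells, so its highest group was not separated from the second.

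Suprabasal keratins differed across the 3 largest clusters of suprabasal cells. Krt10, the type I suprabasal keratin, stood at 25900, 32400 and 45900 CPM in the clusters with 775, 703 and 844 cells, the last of which was led by Cnfn and Asprv1 of the cornifying layers. Krt2, a type II keratin of the upper spinous and granular layers, stood at 13500, 18600 and 28100 CPM in the same clusters, and Krt14 at 4700, 2200 and 339 CPM. Krt1, the textbook partner of Krt10, ran the other way and was highest in the first of them, at 5520, 3010 and 2970 CPM. In the remaining, smallest suprabasal cluster both were high, Krt10 at 45700 CPM and Krt1 at 4628 CPM. The opposite run thus holds only among the 3 largest clusters.

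The less abundant suprabasal keratins were highest in the Cnfn-led cluster of these 3. Krt77, a type II keratin also known from sweat ducts, reached 288 CPM there, against 11.9 and 20.5 CPM in the other clusters, and Krt78, a type II keratin of differentiating epithelia, reached 101 CPM, against 7.67 and 14 CPM. Krt24, a type I keratin of late differentiation, reached 335 CPM there, against 40 and 108 CPM. Krt10 was detected in 99.9% of suprabasal cells (median depth 9034.5 UMIs), against 37.8% of leukocytes and 64.2% of fibroblasts (median depth 4715 UMIs), so that detection alone does not mark a cell as suprabasal. Krt2 was detected in 95.8% and Krt1 in 73.2% of suprabasal cells, against 25.4 and 5.9% of leukocytes.

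Krt79, a type II keratin that marks cells of the follicle opening and sebaceous duct, was highest in the upper follicle, at 6484 CPM beside 9958 CPM of Krt14 in the same cells, and second highest in sebocytes, at 3009 CPM. It was detected in 98.8% of sebocytes and 66.4% of upper follicle cells, against 3.92% of leukocytes. Within the upper follicle, the cluster of 469 cells held 2660 CPM of Krt79 beside 12700 CPM of Krt14 and 1120 CPM of Krt10, and the cluster of 307 cells, led by Cst6, Crct1 and Flg, held 13800 CPM of Krt79 beside 4740 CPM of Krt14, 15600 CPM of Krt10 and 9930 CPM of Krt1. Krt1 was thus almost as high in the upper follicle, at a mean of 3752 CPM, as in suprabasal cells, at 4061 CPM, while Krt2 was low in both follicle clusters, at 100 and 468 CPM. Krt80, a widely expressed type II keratin, averaged 130.8 CPM in the upper follicle and 72.18 CPM in suprabasal cells, and Krt7, a simple-type keratin of ducts and glands, averaged 16.57 CPM in the upper follicle. Krt4 and Krt13, the pair of internal stratified epithelia, and Krt12, known from cornea, stayed between 0.6557 and 2.229 CPM in their highest group.

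Of the 21 keratins highest in the hair matrix, 12 formed the list of hard keratins of the hair cortex and cuticle followed here, which leaves out Krt39 and Krt84. Krt35, a type I keratin made early in the forming cortex and cuticle, averaged 1003 CPM, and the later cortex keratins Krt33a, Krt83, Krt87 and Krt31 averaged 930.8, 674.4, 517.3 and 388.2 CPM. Krt32, a type I cuticle keratin, averaged 493 CPM, and Krt75, the type II keratin of the companion layer, 210.3 CPM. The lowest in this group were Krt84, Krt222, Krt72, Krt39 and Krt26, at 0.9235 to 7.278 CPM. Krt222 had 4 UMIs in the hair matrix, and 30 of its 43 UMIs lay outside the epithelium. Its level was 2.916 CPM in vascular endothelial cells, against 2.546 CPM in the hair matrix. Reads of Krt87 are uncertain, since 45.7% of the 60-base words in the last 400 bases of its transcripts also occur in transcripts of Gm49425. For Krt33a the shares were 4.99% with Krt34, 1.17% with Krt33b and 0.88% with Krt31, and for Krt14 the share was 3.52% with Krt17.

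The hard keratins came from very few cells. One EC-OVA replicate 2 hair matrix cell held 3559 of the 8711 UMIs of the 12 hard keratins in all epithelial cells (40.9%), and these were 16.6% of its own UMIs. One EC-SAL replicate 1 cell held 1069 more (12.3%), and 37 cells with at least 20 such UMIs held 87.5%. Both of these cells had Krt33a, Krt83, Krt87 and Krt31 and 0 UMIs of Krt35 and Krt32, whereas another EC-OVA replicate 2 cell had 488 UMIs of Krt32, 57 of the cuticle keratin Krt82 and 74 of Krt35 and 0 of Krt33a and Krt83. Krt35 was more widespread, with UMIs in 113 of the 211 hair matrix cells, against 6 of them for Krt33a and 5 for Krt83.

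**Figure D2:**
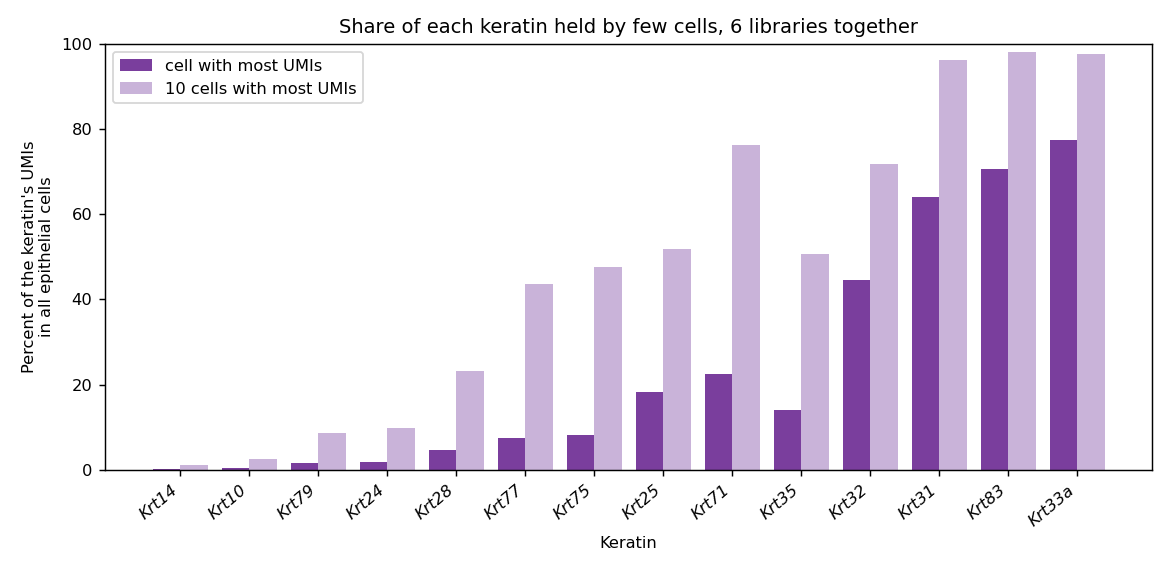
Bars give the percent of a keratin's UMIs in all epithelial cells that were held by the cell with most UMIs (dark) and by the 10 cells with most UMIs (light), for 14 keratins. For Krt14 and Krt10 the 10 richest cells held 1.19 and 2.48% of the UMIs, whereas for Krt33a, Krt83 and Krt31 the single richest cell held 77.4, 70.6 and 64.0%.

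The 6 keratins highest in Cntfr-led cells were the inner root sheath keratins Krt25, Krt27 and Krt28 (type I) and Krt71 and Krt73 (type II), and Krt76, a type II keratin best known from the palate. Krt25 averaged 1127 CPM, Krt71 831.9 CPM, Krt28 391.4 CPM, Krt27 283.7 CPM, Krt73 93.75 CPM and Krt76 2.467 CPM. Krt71 was detected in 24.7% of Cntfr-led cells (median depth 6859 UMIs), against 0.792% of leukocytes, and 83.9% of the Cntfr-led cells with Krt71 also had its type I partner Krt25. Krt25 was detected in 56.9% of Cntfr-led cells, against 1.15% of leukocytes. These keratins were also uneven between cells, with 100 cells of at least 20 UMIs holding 78.3% of the 20341 UMIs of the 6 inner root sheath keratins (these 5 and Krt72). The richest, an EC-SAL replicate 3 cell clustered with the upper follicle, had 1562 UMIs of Krt25, 1392 of Krt71 and 644 of Krt27.

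The simple keratins were sparse. Krt8 (type II) and Krt19 (type I) were highest in Tagln-led cells, at 43.87 and 32.48 CPM, and Krt18 (type I), the usual partner of Krt8, was highest in Akr1c18-led cells, at 54.36 CPM. Krt8 was detected in 15.7% of Tagln-led cells, against 0.0396% of leukocytes, and of the Tagln-led cells with Krt8 22.5% had Krt18 and 25.4% had Krt19, against 10.1 and 13.3% of all Tagln-led cells. The 3 were higher in the smaller Tagln-led cluster, at 66.59 CPM of Krt8, 83.01 CPM of Krt18 and 77.53 CPM of Krt19, than in the larger one, at 36.27, 10.99 and 22.18 CPM. In Akr1c18-led cells Krt18 was detected in 20.1% and Krt8 in 1.71%. No cluster was named from the Merkel cell markers, Merkel cells being the usual Krt8 and Krt18 cells of skin. Krt9, the palm and sole keratin, had 24 UMIs in all, Krt20 had 1 UMI in epithelial cells and Krt88 had 4.

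Keratin UMIs outside the epithelium were treated as ambient RNA, that is transcripts freed by broken cells and captured in other droplets. Krt14 was detected in 31.9 to 45.0% of the cells of every non-epithelial class, at a mean level of 113.5 ± 20.36 CPM in EC-OVA and 309.4 ± 66.56 CPM in EC-SAL libraries (SD, n = 3 each). Of the 17 keratins with at least 100 non-epithelial UMIs, 14 were lower in each EC-OVA library than in each EC-SAL library and 0 were higher in this way, beside 2052 lower (16%) and 1863 higher (14.5%) of all 12852 genes with that many. The 14 include Krt8 and Krt18, whose non-epithelial UMIs lay mostly in cartilage, as described below. Krt10 stood at 164.8, 157.7 and 141.8 CPM in the non-epithelial cells of the EC-OVA libraries, against 399.3, 413.4 and 353.3 CPM in those of the EC-SAL libraries. Krt2 stood at 67.97, 52.82 and 53.2 CPM in EC-OVA and 211.1, 218.7 and 203.9 CPM in EC-SAL libraries. The ratio of EC-OVA to EC-SAL means was 0.398 for Krt10, 0.275 for Krt2, 0.367 for Krt14, 0.373 for Krt5 and 0.344 for Krt1.

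Several keratins had most of their non-epithelial UMIs in few clusters, at rates that Krt14 did not follow. Krt8 was detected in 10.7% of 1712 cartilage cells (exact 95% interval 9.32 to 12.3%) and in 22.5% of 320 cells of a fibroblast cluster led by Coch, Tnmd and Fmod (the upper bound being 27.5%), against 0 of 716 lymphatic endothelial cells, which allows up to 0.514%. The intervals cover counting error only. Cartilage held 287 of the 528 non-epithelial Krt8 UMIs and 68 of the 111 Krt18 UMIs. Per 1000 UMIs of Krt14, cartilage had 196.7 UMIs of Krt8, fibroblasts 35.15 and the epithelium 0.35, so Krt8 and Krt14 were not in 1 ratio across classes.

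Krt19 was detected in 39.8% of the 166 cells of a fibroblast cluster led by Apod, Dcn and Ccl11 (32.3 to 47.6%), which held 213 of the 244 non-epithelial Krt19 UMIs. Cells with Krt19 in that cluster were 8 of 25, 9 of 27 and 13 of 26 in the EC-OVA libraries, against 14 of 24, 9 of 28 and 13 of 36 in the EC-SAL libraries, so every library showed it and the groups overlapped. Krt83, a hair cortex keratin, was detected in 12.7% of the 417 cells of a leukocyte cluster led by Ltb, Cd3g and Ctla2a (9.67 to 16.3%), and in no other leukocyte. These were 7 of 87, 9 of 95 and 14 of 83 cells in the EC-OVA libraries, against 11 of 64, 6 of 46 and 6 of 42 in the EC-SAL libraries, and again the groups overlapped. Krt14 was detected in 41.5% of the 53 leukocytes with Krt83 (median depth 2251 UMIs) and in 31.7% of the leukocytes without it (median depth 1838.5 UMIs). Krt20 had 57 of its 92 non-epithelial UMIs in a fibroblast cluster led by Tnfaip6, Col3a1 and Lum, in 1.96% of its 2498 cells, and 1 UMI in the whole epithelium. A vascular endothelial cluster led by Fabp4, Ctla2a and Plvap held 16 more Krt20 UMIs. Its level of 3.47 CPM was close to the 3.82 CPM of the fibroblast cluster.

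EC-OVA and EC-SAL cells were compared within each group on UMIs summed per library, with edgeR's quasi-likelihood test and Benjamini-Hochberg adjustment over all genes tested in the group (threshold 0.05). Fold changes are log2, EC-OVA over EC-SAL, with the standard error.

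In suprabasal cells the type II keratin Krt1 was higher in EC-OVA skin, while its partner Krt10 and the other abundant type II keratin, Krt2, did not pass the test. Krt1 stood at 4010, 5110 and 5658 CPM in the EC-OVA libraries, against 3428, 3404 and 2754 CPM in the EC-SAL libraries. Every EC-OVA library lay above every EC-SAL library. The change was 0.68 ± 0.12 (adjusted p = 0.0384, edgeR). Of 43 members with a UMI in suprabasal cells 16 passed the filter on low counts, and 1 of these was called, beside 0.777% of all 9141 genes tested (0.624% higher, 0.153% lower). With edgeR 8 of the 16 had an unadjusted p under 0.05, against 1156 of the 9141 genes. The median change of the 16 was -0.05, against 0.0035 over all genes tested.

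Krt1 kept its direction when any 1 library was left out, at 0.57 to 0.82, but it passed only without EC-OVA replicate 1 or 2. The adjusted p was 0.158, 0.127, 0.155 and 0.176 without EC-OVA replicate 3 and EC-SAL replicates 1, 2 and 3. With each suprabasal cluster weighted to the same share in every library it was 0.66 ± 0.11 (adjusted p = 0.0424). Of the 4 stress keratins that mark injured and inflamed epidermis, 2 were called higher in the same cells, Krt6a at 1.38 ± 0.19 (adjusted p = 0.0118) and Krt16 at 0.72 ± 0.1 (adjusted p = 0.0129). Krt17 at 0.47 ± 0.1 (adjusted p = 0.0705) and Krt6b at 1.95 ± 0.47 (adjusted p = 0.0942) missed the threshold. Of the 10 dissociation-response genes 0 were called there with edgeR, and 5 had an unadjusted p under 0.05, against 1156 of all 9141 genes tested. Atf3, Ier2 and Jun were at -0.35, -0.34 and -0.22, and Dnajb1 and Hspa1b at 0.32 and 0.39, and their part in the Krt1 result was not tested.

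Krt10 stood at 39560, 30650 and 36850 CPM in suprabasal cells of the EC-OVA libraries, against 37500, 36490 and 34560 CPM in the EC-SAL libraries. Krt2 stood at 22710, 16120 and 20460 CPM in EC-OVA, against 22510, 21320 and 20910 CPM in EC-SAL libraries. For both keratins EC-OVA replicate 2 was the lowest of all 6 libraries and the groups overlapped.

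The late keratins were uneven between libraries. Krt78 was 62.15, 46.07 and 55.21 CPM in EC-OVA, against 41.84, 44.31 and 40.75 CPM in EC-SAL suprabasal cells, with no overlap between groups and a difference of 0.41 ± 0.1 that missed the threshold (adjusted p = 0.0942). Krt77 was 228.7, 231.5 and 102.3 CPM in EC-OVA, against 132.4, 56.48 and 79.4 CPM in EC-SAL libraries (1.12 ± 0.31, adjusted p = 0.143), and EC-OVA replicate 3 lay below EC-SAL replicate 1. The 10 cells richest in Krt77 held 43.5% of its epithelial UMIs. Krt24 was 172, 75.1 and 115.2 CPM in EC-OVA, against 231, 191.8 and 197.6 CPM in EC-SAL libraries, each EC-OVA library below each EC-SAL library, with a difference of -0.73 ± 0.19 that missed the threshold (adjusted p = 0.125).

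**Figure D3:**
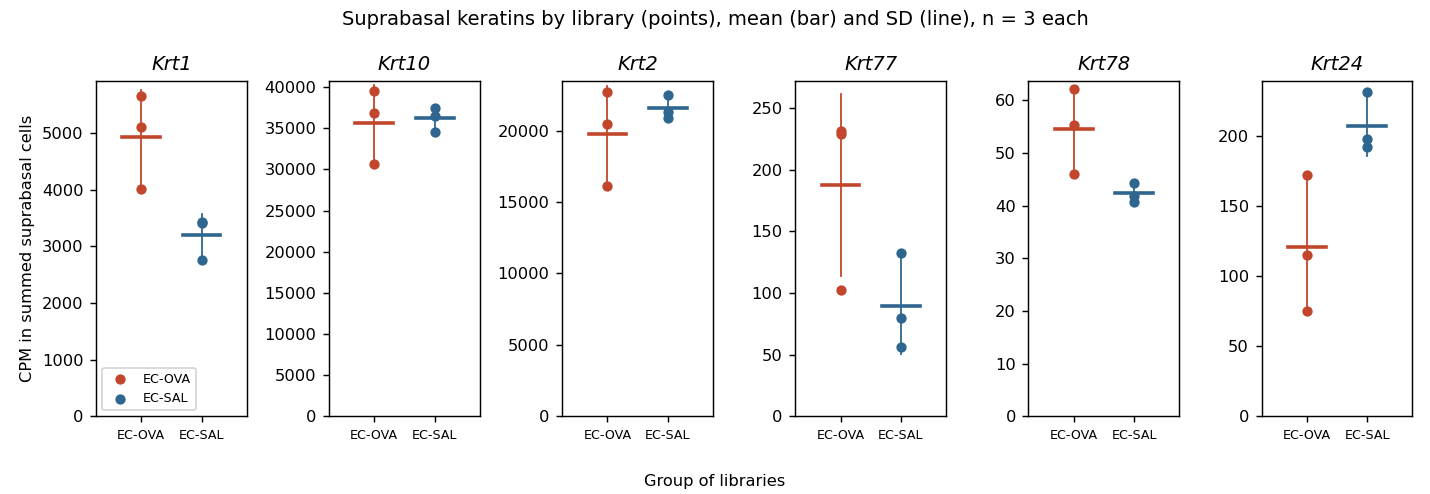
CPM of 6 keratins in summed suprabasal cells of each library (points), with the group mean (bar) and SD (line), n = 3 per group, EC-OVA left and EC-SAL right, on linear axes from 0. Krt1 separates the groups with EC-OVA above, Krt78 separates them narrowly, Krt24 lies lower in EC-OVA, and the Krt10 and Krt2 points overlap.

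In basal cells no keratin was called, and the basal pair differed little between groups. Krt14 stood at 30540, 26590 and 27670 CPM in EC-OVA, against 30430, 28510 and 28260 CPM in EC-SAL libraries, and Krt5 at 5079, 4744 and 5012 CPM in EC-OVA, against 4684, 4690 and 4659 CPM in EC-SAL libraries. The Krt14 values overlapped, and each Krt5 value in EC-OVA lay above each one in EC-SAL by a small margin (0.1 ± 0.07, adjusted p = 0.705). Krt15 stood at 5153, 4605 and 4399 CPM in EC-OVA, against 5137, 5323 and 5348 CPM in EC-SAL libraries (-0.14 ± 0.08, adjusted p = 0.622). Of 41 members with a UMI 12 passed the filter and 0 were called by edgeR, beside 0.16% of all 9350 genes (0.128% higher, 0.0321% lower). DESeq2 called 0 members, and edgeR gave 1 of the 12 an unadjusted p under 0.05, against 845 of the 9350 genes. That 1 was Krt2, named after its value was seen, at 1891, 1480 and 1772 CPM in EC-OVA, against 2475, 2294 and 1916 CPM in EC-SAL libraries (-0.36 ± 0.09, adjusted p = 0.171).

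In the upper follicle no keratin was called either. Krt79 stood at 7686, 4261 and 9050 CPM in EC-OVA, against 7371, 5558 and 4979 CPM in EC-SAL libraries (0.24 ± 0.21, adjusted p = 0.909), a spread within each group that exceeded the difference between them. Krt80 stood at 111.3, 129.9 and 140.4 CPM in EC-OVA, against 132.5, 145.7 and 124.8 CPM in EC-SAL libraries, and Krt7 at 3.976, 26.93 and 15.33 CPM in EC-OVA, against 20.08, 14.1 and 19.03 CPM in EC-SAL libraries, with overlap in both. Krt20 had its single epithelial UMI in EC-OVA replicate 3 and was not tested. Of 42 members with a UMI 14 passed the filter and 0 were called by edgeR, beside 0.0% of all 7031 genes. DESeq2 called 0 members, and edgeR gave 2 of the 14 an unadjusted p under 0.05, against 426 of the 7031 genes.

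Krt24 had the widest gap between groups in the upper follicle, and is named after its values were seen. It stood at 5.301, 0 and 2.359 CPM in EC-OVA, against 41.77, 18.02 and 90.58 CPM in EC-SAL libraries, without overlap and resting on 200 UMIs over the 6 libraries (-4.17 ± 0.85, adjusted p = 0.35). It passed in this group when the replicate number was entered as a block (adjusted p = 0.00096), although the numbers were not found to pair the libraries.

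Sebocytes had 2 keratins called, both lower in EC-OVA, and both are suprabasal keratins at low level there. Krt10 stood at 85.51, 82.92 and 86.56 CPM in EC-OVA, against 209.8, 154.2 and 159.5 CPM in EC-SAL sebocytes (-1.02 ± 0.16, adjusted p = 0.007). Krt2 stood at 34.74, 36.85 and 46.04 CPM in EC-OVA, against 139.6, 94.75 and 88.23 CPM in EC-SAL sebocytes (-1.46 ± 0.22, adjusted p = 0.007). The groups did not overlap for either, and both passed without any 1 library. Of 31 members with a UMI 7 passed the filter and these 2 were called, beside 0.702% of all 6412 genes tested (0.468% higher, 0.234% lower). With edgeR 6 of the 7 had an unadjusted p under 0.05, against 685 of the 6412 genes. They included Krt5 (-0.68 ± 0.22, adjusted p = 0.205), Krt15 (-0.89 ± 0.3, adjusted p = 0.247) and Krt1 (-0.78 ± 0.31, adjusted p = 0.347). In the 2 sebocyte clusters Krt5 stood at 152.2 and 131.6 CPM and Krt15 at 154.7 and 126.5 CPM. Their mean non-epithelial levels were 33.8 and 38.48 CPM.

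The same keratins were higher in the non-epithelial cells of the same libraries than in sebocytes. The level in sebocytes was 0.373 to 0.61 times the non-epithelial level for Krt10 and 0.433 to 0.865 times for Krt2, over the 6 libraries, that is below it in every library. Taking the non-epithelial level off therefore leaves nothing of them to test. With doublets kept the values were -1.02 for Krt10 and -0.96 for Krt2 with adjusted p of 0.385 and 0.396. The dissociation genes Fos and Atf3 were also lower in EC-OVA sebocytes, by -1.02 ± 0.2 and -0.85 ± 0.16 (adjusted p = 0.0291 and 0.0235), and their part in the result was not tested.

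The sebocytes' own keratins did not pass. Krt79 stood at 3439, 3138 and 3148 CPM in EC-OVA, against 2744, 2838 and 2746 CPM in EC-SAL sebocytes, without overlap, and the difference of 0.24 ± 0.1 missed the threshold (adjusted p = 0.348). Krt14 stood at 5996, 4817 and 4102 CPM in EC-OVA, against 5189, 4754 and 5012 CPM in EC-SAL sebocytes, with overlap. These levels were at least 149 times (Krt79) and 13.7 times (Krt14) the non-epithelial level of the same library.

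Krt10 and Krt2 were lower in EC-OVA in the other groups that hold little of them, without passing the test. In the hair matrix Krt10 stood at 105.5, 97.09 and 119.4 CPM in EC-OVA, against 282.6, 316.7 and 223.8 CPM in EC-SAL libraries (-1.32 ± 0.21, adjusted p = 0.0809), and lay at 0.616 to 0.842 times the non-epithelial level. The Krt2 difference was -2.06 ± 0.3 (adjusted p = 0.0803) in the hair matrix, -1.7 ± 0.29 (adjusted p = 0.21) in Cntfr-led cells, -0.98 ± 0.23 (adjusted p = 0.251) in Akr1c18-led cells and -0.68 ± 0.32 (adjusted p = 0.862) in Tagln-led cells. Where these keratins are abundant, in suprabasal cells, Krt10 differed by 0.02 ± 0.08 and Krt2 by -0.08 ± 0.09.

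**Figure D4:**
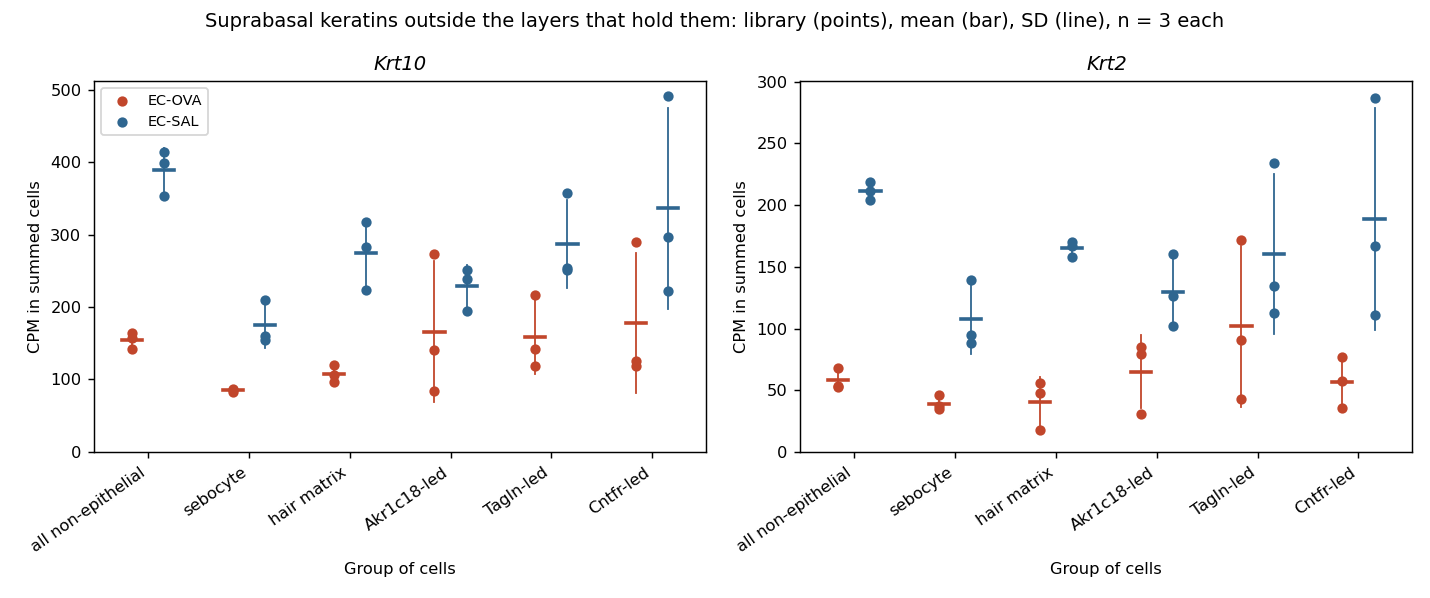
CPM of Krt10 and Krt2 in summed cells of each library (points), with mean (bar) and SD (line), n = 3 per group, EC-OVA left of EC-SAL, for all non-epithelial cells and for 5 groups of epithelial cells that hold little of them, on linear axes from 0. In non-epithelial cells, sebocytes and hair matrix every EC-OVA point lies below every EC-SAL point, and the sebocyte points lie below the non-epithelial points of the same group.

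In the hair matrix 39 members had a UMI, 21 passed the filter and 0 were called by edgeR, beside 0.0% of all 3803 genes. With edgeR 7 of the 21 had an unadjusted p under 0.05, against 233 of the 3803 genes. DESeq2 called 3, Krt10, Krt2 and Krt15, all lower in EC-OVA, among the 6 genes it called there in all. Krt35 stood at 812.7, 1214 and 268.6 CPM in EC-OVA, against 1272, 1558 and 892.9 CPM in EC-SAL libraries (-0.61 ± 0.45, adjusted p = 0.832), and Krt75 at 148.9, 141.2 and 405.9 CPM in EC-OVA, against 390.6, 37.26 and 138.2 CPM in EC-SAL libraries. Both overlapped. Krt31 stood at 80.65, 1792 and 0 CPM in EC-OVA, against 421.1, 6.985 and 28.52 CPM in EC-SAL libraries, where the 1792 rests on the single rich EC-OVA cell described above. Krt72, an inner root sheath keratin, was at 0, 0 and 5.969 CPM in EC-OVA and 0, 0 and 13.16 CPM in EC-SAL libraries and was not tested. With 14 to 57 hair matrix cells per library, differences in hard keratins were not resolvable from which cells were caught.

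In Cntfr-led cells the inner root sheath keratins varied most among EC-OVA libraries. Krt71 stood at 223.2, 180.3 and 1273 CPM in EC-OVA, against 1043, 904.2 and 1367 CPM in EC-SAL libraries (-0.97 ± 0.48, adjusted p = 0.954). Krt25 stood at 648.5, 660.6 and 1866 CPM in EC-OVA, against 1144, 1009 and 1435 CPM in EC-SAL libraries. For both, EC-OVA replicates 1 and 2 lay below all EC-SAL libraries and EC-OVA replicate 3 lay among or above them.

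The smaller root sheath keratins showed the same high EC-OVA replicate 3. Krt27 stood at 79.25, 68.39 and 640.8 CPM in EC-OVA, against 297.2, 228.2 and 388.5 CPM in EC-SAL libraries, and Krt28 at 324.9, 225.4 and 667.1 CPM in EC-OVA, against 417.4, 381.1 and 332.3 CPM in EC-SAL libraries. Krt73 stood at 15.85, 37.31 and 222.4 CPM in EC-OVA, against 107.3, 43.68 and 135.9 CPM in EC-SAL libraries. Of 35 members with a UMI 14 passed the filter and 0 were called by edgeR, beside 0.0% of all 6694 genes. DESeq2 called 1 member, Krt2, the only gene it called there. With edgeR 2 of the 14 had an unadjusted p under 0.05, against 335 of the 6694 genes.

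Among the simple keratins, Krt8 in Tagln-led cells stood at 57.4, 44.2 and 68.42 CPM in EC-OVA, against 44.76, 29.28 and 19.18 CPM in EC-SAL libraries (0.85 ± 0.24, adjusted p = 0.496), with EC-OVA replicate 2 just below EC-SAL replicate 1. Krt19 stood at 37.14, 30.84 and 33.51 CPM in EC-OVA, against 31.6, 38.76 and 23.02 CPM in EC-SAL Tagln-led cells, with overlap. Krt18 stood at 64.56, 31.81 and 78.74 CPM in EC-OVA, against 58.56, 45.88 and 46.6 CPM in EC-SAL Akr1c18-led cells, also with overlap. In Tagln-led cells 37 members had a UMI, 14 passed the filter and 0 were called by edgeR, beside 0.0% of all 7907 genes. DESeq2 called 0 members, and edgeR gave 3 of the 14 an unadjusted p under 0.05, against 453 of the 7907 genes. In Akr1c18-led cells 36 had a UMI, 10 passed and 0 were called by edgeR, beside 0.0% of all 7461 genes. DESeq2 called 0 members, and edgeR gave 2 of the 10 an unadjusted p under 0.05, against 515 of the 7461 genes. Those 2 were Krt2 and Krt79, and Krt79 stood at 410.6, 351.9 and 312.8 CPM in EC-OVA, against 491.2, 481.7 and 510.2 CPM in EC-SAL libraries, without overlap (-0.44 ± 0.1, adjusted p = 0.251).

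In the sum of all epithelial cells 5 keratins were called, and the cell mix moved with them. Krt8 was higher in EC-OVA, and the basal keratins Krt14, Krt5 and Krt15 and the late keratin Krt24 were lower. Of 48 members with a UMI 35 passed the filter, and 1 was called higher and 4 lower, beside 3.47% of all 12139 genes (2.27% higher, 1.19% lower). Basal cells were 16.44, 18.57 and 16.74% of epithelial cells in the EC-OVA libraries, against 27.73, 27.49 and 28.11% in the EC-SAL libraries, and Tagln-led cells 13.92% ± 1.869 in EC-OVA and 8.439% ± 0.5441 in EC-SAL libraries (SD, n = 3 each). Both gave an exact permutation p of 0.1, the smallest possible, and 0.15 adjusted over the 9 groups.

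Krt14 stood at 10150, 9106 and 9467 CPM in all EC-OVA epithelial cells, against 12860, 12040 and 11800 CPM in all EC-SAL epithelial cells (-0.36 ± 0.06, adjusted p = 0.0165). Krt5 stood at 1587, 1553 and 1601 CPM in EC-OVA, against 1953, 1917 and 1881 CPM in EC-SAL libraries (-0.29 ± 0.05, adjusted p = 0.0241), and Krt15 at 2130, 1946 and 1862 CPM in EC-OVA, against 2484, 2483 and 2335 CPM in EC-SAL libraries (-0.31 ± 0.06, adjusted p = 0.0381). None of these overlapped between groups. Krt8 stood at 6.392, 6.053 and 7.006 CPM in EC-OVA, against 3.346, 2.53 and 2.05 CPM in EC-SAL libraries (1.28 ± 0.17, adjusted p = 0.00803), and Krt24 at 54.28, 25.06 and 40.69 CPM in EC-OVA, against 81.51, 64.64 and 77.2 CPM in EC-SAL libraries (-0.91 ± 0.19, adjusted p = 0.0408), again without overlap.

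With every cluster weighted to the same share in every library, 0 of the 5 were called. Krt14 was then -0.03 ± 0.06, Krt5 0.07 ± 0.05 with the other sign, Krt15 -0.09 ± 0.06, Krt8 0.68 ± 0.19 (adjusted p = 0.221) and Krt24 -0.87 ± 0.18 (adjusted p = 0.107, edgeR). Krt24 was thus the one that kept nearly all of its size. Krt8 lost its call without EC-SAL replicate 2 (adjusted p = 0.0514), Krt14 and Krt5 without EC-OVA replicate 1 or any 1 EC-SAL library, Krt24 without EC-OVA replicate 3 or any 1 EC-SAL library, and Krt15 without any 1 library other than EC-OVA replicate 2. The dissociation genes Atf3, Jun and Ier2 were lower in EC-OVA epithelium, at -0.49, -0.3 and -0.33 (adjusted p = 0.00573, 0.0262 and 0.0174), and their part was not tested.

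**Figure D5:**
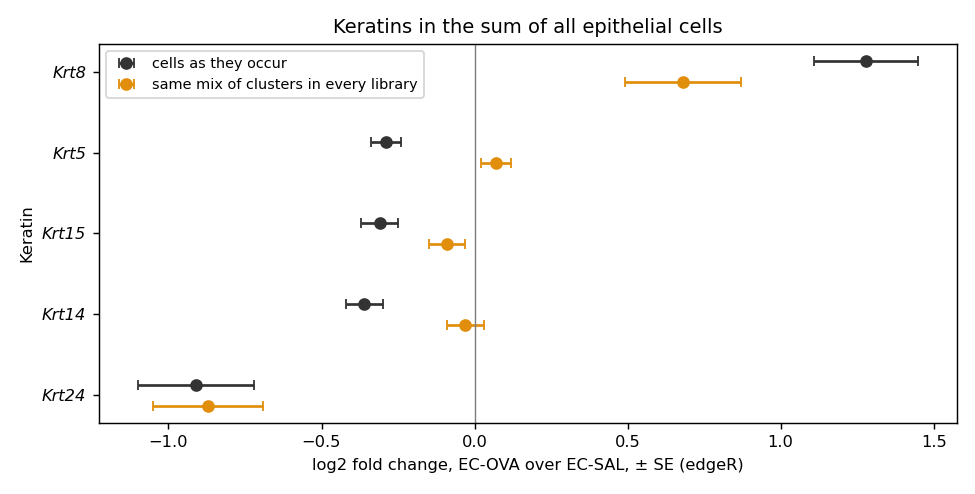
Log2 fold change, EC-OVA over EC-SAL, with its standard error (edgeR, n = 3 per group), of the 5 keratins called in the sum of all epithelial cells, for the cells as they occur (black) and with every cluster at the same share in every library (orange). Krt14, Krt5 and Krt15 move to within 0.1 of 0, Krt8 is 0.68 with the clusters at equal shares, against 1.28 for the cells as they occur, and Krt24 stays near -0.9.

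The EC-OVA effect on a keratin was set against its effect in basal cells, in 1 fit over the groups with library as a block. Of 224 pairs of keratin and group (32 keratins, 7 groups) 0 passed with edgeR, beside 0.0414% of all pairs of gene and group. An unadjusted p under 0.05 was found for 22 of the 224, and the matching share over all genes is not given here. By group the share of all 10014 genes that passed was 0.0399% in suprabasal, 0.00999% in upper follicle, 0.02% in hair matrix, 0.12% in sebocyte, 0.0% in Akr1c18-led, 0.0599% in Tagln-led and 0.0399% in Cntfr-led cells. DESeq2 was not run for this test. The nearest was Krt5 in sebocytes, whose effect was lower than in basal cells by -0.79 ± 0.2 (adjusted p = 0.0756). A call in suprabasal cells or sebocytes is therefore not shown to differ from basal cells.

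With the stress keratins left out, the balance of the 2 filament types did not separate the groups of libraries in the epidermis. Krt16 and Krt17 are type I chains, and Krt16 averaged 1548 CPM in suprabasal cells. The shares below are therefore those of the members and not of all keratins. Type I keratins made up 82.4% ± 0.7738 of keratin UMIs in EC-OVA and 82.55% ± 0.2999 in EC-SAL basal cells, and 60.03% ± 0.5584 in EC-OVA and 60.56% ± 0.2914 in EC-SAL suprabasal cells (SD, n = 3 each, exact permutation p of 0.8 and 0.2). In Cntfr-led cells the share was 77.26, 75.47 and 69.41% in EC-OVA, against 67.26, 69.26 and 65.69% in EC-SAL libraries, without overlap (exact p = 0.1, adjusted 0.3 over 9 groups). The members, again without the stress keratins, were 4.211% ± 0.272 of all UMIs in EC-OVA and 4.393% ± 0.1665 in EC-SAL basal cells, and 6.352% ± 0.7448 in EC-OVA and 6.419% ± 0.2438 in EC-SAL suprabasal cells.

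No gene for the proteins that anchor keratin filaments passed the test. Of 15 desmosome and hemidesmosome genes such as Dsp, Plec and Col17a1, 13 were tested in basal and 14 in suprabasal cells, and 0 were called in any group (edgeR), with medians of 0.12 in basal and 0.1 in suprabasal cells, against 0.0069 and 0.0035 over all genes tested. Of 14 regulators of keratin genes 0 were called within any group. In the sum of all epithelial cells, where the mix of clusters differed between groups, 2 of 14 were called, beside 3.47% of all genes tested. These were Hes1, a Notch target, at 54.09 ± 0.2634 CPM in EC-OVA and 39.89 ± 3.729 CPM in EC-SAL libraries (0.43 ± 0.07, adjusted p = 0.0165, edgeR), and Ovol1, a transcriptional repressor, at 262 ± 38.84 CPM in EC-OVA and 350.8 ± 8.531 CPM in EC-SAL libraries (-0.43 ± 0.08, adjusted p = 0.0238, edgeR). At equal cluster shares, a setting added after seeing the data, neither was called, with Hes1 at 0.15 ± 0.09 (adjusted p = 0.544) and Ovol1 at -0.13 ± 0.07 (adjusted p = 0.491). Of the 57 keratin-associated protein genes that cross-link hard keratins, 7 were tested in the hair matrix and 0 were called there (edgeR).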

How the data were processed

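The 6 libraries were sequenced as 10x 3′ single-cell RNA. The deposited values are raw UMI counts per gene and barcode, made by the authors with Cell Ranger 3.1.0 per the file headers, with STAR and mm10 named in the submitters' processing notes. The annotation release is not given in the sources used here. Barcodes with at least 300 genes and at most 15% mitochondrial UMIs were kept. Doublets were taken as the highest scanpy scores, 0.8% per 1000 barcodes, since the scorer's own threshold marked only 0.197 to 1.013% of barcodes. Cells were clustered with scanpy 1.11.5 and leidenalg 0.10.2 in Python 3.11.15 on 2000 variable genes, 40 components and 20 neighbours at resolution 1.0, with all keratins left out. An epithelial cluster was named where at least 3 markers of a list were raised. Clusters on the lower follicle and bulge list, and one on the matrix and inner root sheath list, had leading genes that went against the list and are called Tagln-led and Cntfr-led. Clusters with a mean sebocyte marker level under 3.0 on the log2 scale are called Akr1c18-led.

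Counts were summed per library and group and tested with edgeR 4.0.16 (quasi-likelihood, R 4.3.3, limma 3.58.1), and DESeq2 1.42.0 was an alternative. Low-count genes were left out by edgeR's filter. The test code was checked on simulated data. Single values were compared with exact two-sided permutation tests, 3 libraries against 3, and shares of cells have exact binomial intervals (95%). Values per library are given for each keratin called in at least 1 group and for 25 keratins set by name, in the group where each was highest. Keratins outside this rule are marked as named after their values were seen, or stand beside a count that they make up. The members and all lists were chosen with earlier results of these data known. The same replicate numbers appear in both groups, but the libraries were not found to be paired by them.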

Additional observations from a re-analysis of the deposited data

How the results depend on the processing

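Of 187 alternative values of the counts of keratins called and of shares, 143 were marked as the same and 44 as moved. A share was marked as the same if it kept its direction. A count has no direction to change, so the 0 values that changed direction speak only of the shares. Without the filter on low counts, edgeR called 1 keratin in basal, 7 in suprabasal, 6 in upper follicle, 17 in hair matrix, 4 in sebocyte, 4 in Akr1c18-led, 4 in Tagln-led and 4 in Cntfr-led cells and 8 in all epithelial cells. DESeq2 called 3 in the hair matrix and 1 in Cntfr-led cells, where it called 6 and 1 genes in all. The share of all genes called under each of the other settings is not given here. Their counts therefore show how far a setting moved the result, and not a response of keratins in particular. With doublets kept the counts were 1 in hair matrix, 0 in sebocyte, 1 in Akr1c18-led and 1 in Cntfr-led cells. A 10% mitochondrial limit gave 1 in Tagln-led cells, the ambient level taken off gave 0 in sebocytes, where it exceeds what was there of both called keratins, and equal cluster shares gave 0 in all epithelial cells. Leaving out the richest cell of each keratin, an alternative chosen after seeing the data, gave 3 in suprabasal and 2 each in Akr1c18-led, Tagln-led and Cntfr-led cells. Leaving out 1 library gave 0 to 3 in suprabasal, 0 to 1 in hair matrix, 2 to 3 in sebocyte, 0 to 1 in Tagln-led, 0 to 2 in Cntfr-led and 0 to 9 in all epithelial cells, and 0 to 1 pairs in the test against basal cells. Of 23 keratins tested in the group where each was highest, 14 had the other sign under at least 1 alternative, most often Krt25 and Krt73 (5 of 15) and Krt27 (4 of 15) in Cntfr-led cells. None of these 14 was called there. Among differences with an unadjusted p under 0.05, the sign turned for Krt79 in suprabasal cells with doublets kept (0.04), Krt2 in Tagln-led cells with the ambient level taken off (2.65) and Krt5 in all epithelial cells at equal cluster shares (0.07). The cause of these shifts was not tested.

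The replicate number as a block gave 2 keratins in suprabasal (Krt1, Krt24), 2 in upper follicle (Krt2, Krt24), 1 in Tagln-led (Krt10) and 3 in Cntfr-led cells (Krt10, Krt2, Krt71). The share of all genes called with that block is not given here either. Correlations of same-numbered libraries ran over -0.12 to 0.16, and in no group did all 3 numbers correlate best with their own, so no pairing was assumed.

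The map was rebuilt under 4 other settings, a comparison chosen after seeing the data. Of 25 keratins followed, 24 kept their highest group with doublets kept, 21 with the 10% limit, 21 with keratins among the clustering genes and 20 at resolution 0.5. In the last 3 settings no hair matrix group formed, and Krt31, Krt35, Krt72 and Krt75 were highest in Cntfr-led cells. Hair matrix cells, 14 to 57 per library, limit what can be detected there.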
